A study of Mus musculus with 5 samples.

Results

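The nuclear-encoded subunits of the respiratory chain were examined in whole kidney of NZB/NZW F1 mice given diosmetin or vehicle. Members were chosen by gene symbol: the Nduf subunit genes of complex I, the Sdh genes of complex II, the Uqcr genes and Cyc1 of complex III, the Cox4 to Cox8 genes of complex IV and the Atp5 genes of complex V. The rule found 85 of the 21878 genes in the table, 37 in complex I, 4 in complex II, 9 in complex III, 18 in complex IV and 17 in complex V. Of these, 81 passed the minimum mean of 0.5 FPKM (fragments per kilobase of transcript, scaled to the library total) and were tested, among 13290 genes in all. The other 4 were all complex IV isoforms.

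The diosmetin group comprised 3 libraries, from mice that received 50 mg/kg diosmetin intraperitoneally every other day for 6 weeks, and the vehicle group comprised 2 libraries from mice injected with vehicle on that schedule. All mice were F1 offspring of NZB/BINJ females and NZW/LacJ males, a cross known for spontaneous lupus-like autoimmunity with nephritis, and no kidney of a strain without that background was compared. Diosmetin is a plant flavone, and the stated aim was to study its role in type I interferon signalling in the kidney. The labels used here give neither age nor sex at collection. The labels do not say that each library came from a separate animal, so p-values measure the spread between these libraries, which may be technical.

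The respiratory chain sits in the inner mitochondrial membrane. Complexes I and II pass electrons from NADH and succinate to ubiquinone, complex III passes them to cytochrome c, and complex IV passes them to oxygen. Complexes I, III and IV pump protons, and complex V, the ATP synthase, uses the resulting gradient to make ATP. Kidney tubules, above all the proximal tubule and the thick ascending limb, are rich in mitochondria that power ion transport. The nuclear genes described here are translated in the cytosol and imported. The subunits encoded by mitochondrial DNA were not analysed here.

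Promoter stretches are shown because nuclear respiratory factor 1 (NRF1) and ETS-family factors such as GABPA are known regulators of many of these genes. In each complex the most abundant member and the member with the smallest p-value were taken among those with a match wholly before the start site. Sequences are from RefSeq promoters of assembly GRCm38.p6, all on the minus strand and written 5′ to 3′. Capitals mark matches to the NRF1 motif (GCGCA, any base, then GCGC) or, in Uqcrh, to the ETS motif CCGGAAGT read on the opposite strand.
Ndufb4, complex I, chr16:37654369-37654410: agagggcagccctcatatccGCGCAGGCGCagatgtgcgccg
Ndufa5, complex I, chr6:24527691-24527736: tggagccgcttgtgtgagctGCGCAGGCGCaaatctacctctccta
Sdha, complex II, chr13:74350241-74350270: cgacacccgcgcgactcggtGCGCAAGCGC
Sdhd, complex II, chr9:50603899-50603948: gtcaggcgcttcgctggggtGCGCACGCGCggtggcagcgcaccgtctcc
Uqcrh, complex III, chr4:116075071-116075101: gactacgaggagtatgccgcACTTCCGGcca
Cox6a1, complex IV, chr5:115349046-115349095: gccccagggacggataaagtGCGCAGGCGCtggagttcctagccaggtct
Atp5c1, complex V, chr2:10080433-10080469: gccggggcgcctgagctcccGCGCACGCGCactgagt
Atp5k, complex V, chr5:108434420-108434469: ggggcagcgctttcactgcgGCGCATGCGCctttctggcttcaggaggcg

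A promoter was found for 69 of the 85 members, and each window ran from 250 bases before to 50 after the start. On either strand, the NRF1 motif lay in the promoters of 17 members (24.6%), compared with 10.8% of tested genes with a promoter. The YY1 motif AAGATGGCG was found for 8 members (11.6%, compared with 3.36%). The estrogen-related receptor motif TCAAGGTCA was found for 2, Sdhd and Atp5g3 (2.90%, compared with 0.321%). The ETS motif was found for 5 (7.25%, compared with 8.56%). These letters describe the windows and do not show binding.

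The subunit transcripts were abundant and steady from library to library. The 85 members together gave 15197, 15095 and 14879 FPKM in the diosmetin libraries and 14576 and 14710 FPKM in the vehicle libraries. That was 4.69%, 4.75% and 4.65% of all FPKM under diosmetin and 4.52% and 4.56% under vehicle, so all 3 diosmetin libraries lay above both vehicle libraries. The median tested subunit had a mean of 130 FPKM, against 8.62 FPKM for the median tested gene. The median SD over the 5 libraries was 0.059 for the subunits on the log2 scale. It was 0.12 for all tested genes and 0.11 for the 1153 tested genes with a mean of 50 FPKM or more. The lowest and highest library differed more than 1.5-fold for 5 of the 81 subunits. Depth, estimated from the steps between the lowest FPKM values, was 46.9, 43.0 and 45.1 M fragments (M for mega) in the diosmetin libraries and 38.4 and 48.6 M in the vehicle libraries. Counting error is therefore small for most members.

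**Figure D1:**
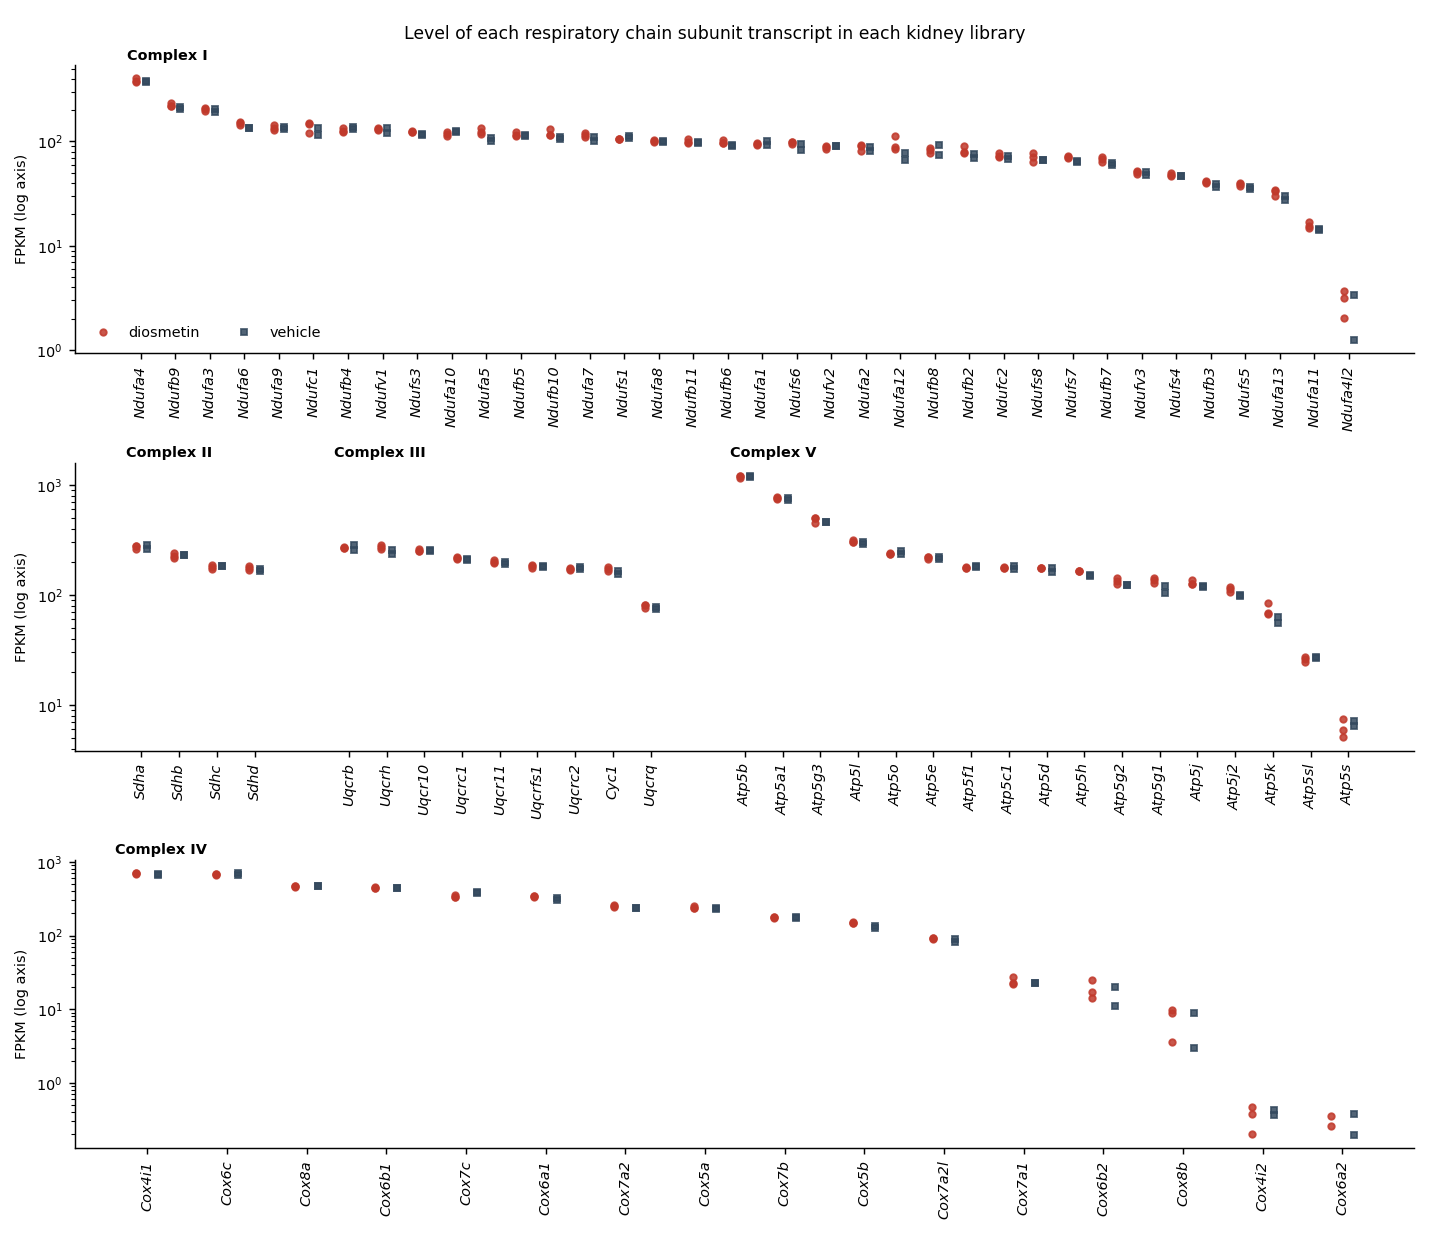
FPKM (log axis) of the subunits drawn, those with a value above 0, in each library, with diosmetin as circles and vehicle as squares, ordered within each complex by mean level. Atp5b is the highest at 1191 FPKM on average, and most members sit close together across all 5 libraries, while Cox8b and Ndufa4l2 spread about 3-fold.

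No subunit differed between diosmetin and vehicle after adjustment. The limma test on log2(FPKM + 1) with Benjamini-Hochberg adjustment over all tested genes called 0 of 81 subunits and 0 of 13290 genes (0%) at 0.05, and no subunit went below an adjusted p of 0.738. With p left unadjusted and a threshold of 0.05, 5 subunits were higher and 0 lower, beside 847 of all tested genes (6.37%) in either direction, 4.68% higher and 1.69% lower. The 3 diosmetin libraries all lay above both vehicle libraries for 26 subunits (32.1%; 18.3% of all tested genes) and all below for 4 subunits (4.94%; 6.17% of all tested genes). The mean was higher for 62 of 81 subunits (76.5%), compared with 63.9% of all tested genes. The median log2 difference, diosmetin minus vehicle, was 0.049 for the subunits and 0.043 for all tested genes. With libraries rescaled by the median of their gene ratios, the all-gene median moved to -0.0040, and 39 subunits were higher and 42 lower, 48.1% higher beside 48.8% of all tested genes. The medians of complexes I to V were then 0.024, -0.073, -0.0068, -0.0063 and -0.020, so the direction of such small differences depends on the scaling. The median 95% interval of a subunit reached 0.18 either side of its log2 difference. In these bulk kidneys, fewer cells of a type and less RNA per cell cannot be told apart.

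**Figure D2:**
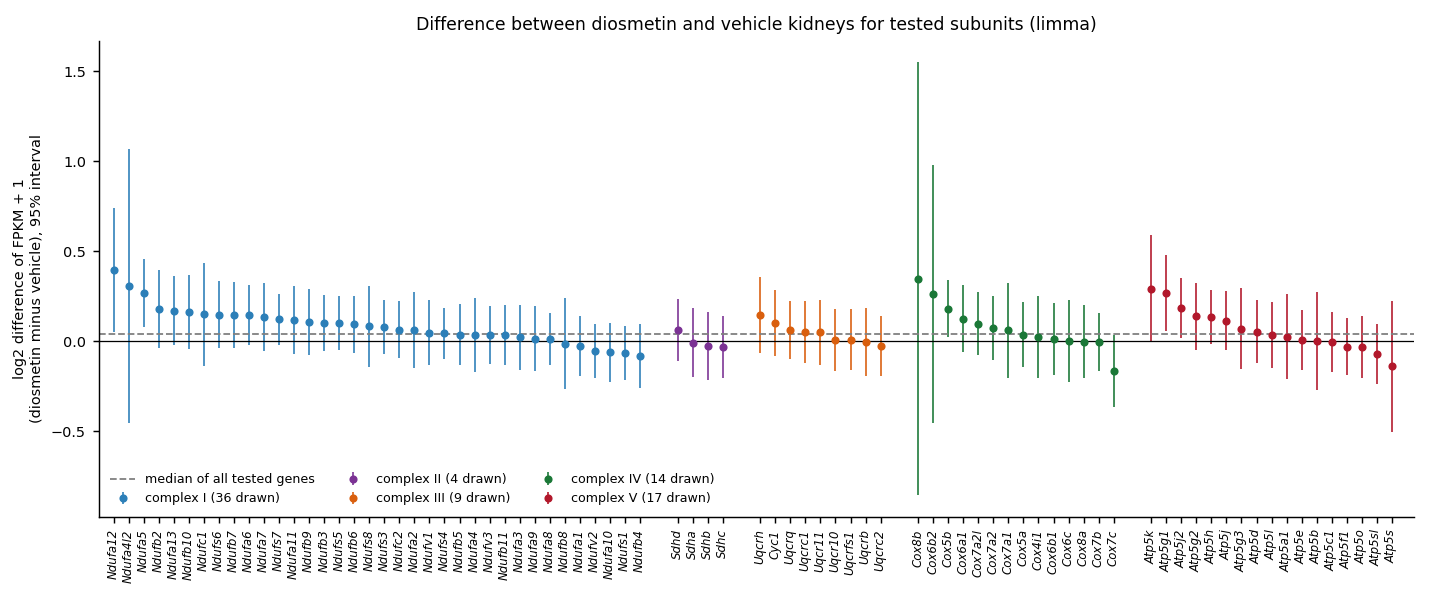
Log2 difference of FPKM + 1 (diosmetin minus vehicle) for the tested subunits drawn, with 95% limma intervals, sorted within each complex, and a dashed line at the median of all tested genes, 0.043. Most points lie within 0.2 of 0, and the interval excludes 0 for 5 subunits before adjustment.

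Complex I takes electrons from NADH. Its core subunits carry the flavin and the iron-sulfur clusters, and its many accessory subunits surround them. Its 37 genes summed to 3965, 4010 and 3865 FPKM under diosmetin and 3721 and 3803 FPKM under vehicle. The mean was higher for 31 of 37 (83.8%, beside 63.9% of all tested genes), and the median log2 difference was 0.079. The libraries did not overlap for 16 higher (43.2%, beside 18.3% of all tested genes) and 2 lower (5.41%, beside 6.17%). Among core subunits, Ndufs7, an iron-sulfur subunit next to the ubiquinone site, had 72.0, 70.3 and 69.6 FPKM under diosmetin and 64.1 and 65.7 FPKM under vehicle. These groups did not overlap, and the log2 difference was 0.12 ± 0.06 (SE; limma, unadjusted p = 0.0806, adjusted p = 0.738). Ndufs1, the largest core subunit, lay slightly lower, with 107, 104 and 105 FPKM under diosmetin and 113 and 108 FPKM under vehicle. Ndufv1, which binds NADH, had 128, 133 and 133 FPKM under diosmetin and 121 and 134 FPKM under vehicle, so its groups overlapped. Ndufs8, another iron-sulfur subunit, also overlapped, with 71.2, 78.1 and 64.1 FPKM under diosmetin and 66.9 and 66.8 FPKM under vehicle.

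The accessory subunit Ndufa5 (gene span chr6:24518662-24527690, RefSeq GRCm38.p6 as for all positions) had the smallest p of the 81. It measured 133, 124 and 119 FPKM under diosmetin and 101 and 107 FPKM under vehicle, means of 125 ± 7.4 (SD, n = 3) and 104 ± 4.6 (SD, n = 2). Every diosmetin library lay above both vehicle libraries, and the log2 difference was 0.27 ± 0.08 (SE; limma, unadjusted p = 0.0132, adjusted p = 0.738). Ndufa12 (chr10:94199035-94221440), another accessory subunit, had 88.7, 84.5 and 114 FPKM under diosmetin and 67.2 and 76.8 FPKM under vehicle. The groups did not overlap, and the log2 difference of 0.40 ± 0.14 was the largest of the 81 (limma, unadjusted p = 0.0302, adjusted p = 0.738). Without diosmetin replicate 3 it was 0.27. With libraries rescaled by the median of their gene ratios it was 0.34 (limma, unadjusted p = 0.0562). Ndufa13, an accessory subunit also known as GRIM-19, had 34.1, 33.3 and 29.9 FPKM under diosmetin and 27.7 and 29.7 FPKM under vehicle, again without overlap. Ndufa4, named for complex I but now assigned to complex IV, was the most abundant Nduf row, with 383, 401 and 368 FPKM under diosmetin and 368 and 382 FPKM under vehicle.

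Complex II, succinate dehydrogenase, also acts in the citric acid cycle and has no subunit encoded by mitochondrial DNA. Its sum was 884, 831 and 845 FPKM under diosmetin and 861 and 849 FPKM under vehicle, and the groups overlapped. None of its 4 genes had groups without overlap, and its median log2 difference was -0.017 (-0.0069 after rescaling to TPM). Sdha, the flavoprotein, had 276, 262 and 276 FPKM under diosmetin and 283 and 263 FPKM under vehicle (log2 difference -0.01, 95% interval -0.20 to 0.18). Sdhb, the iron-sulfur subunit, had 238, 215 and 227 FPKM under diosmetin and 232 and 230 FPKM under vehicle. Sdhc, a membrane anchor, had 188, 178 and 173 FPKM under diosmetin and 183 and 184 FPKM under vehicle. Sdhd, the other anchor, had the one higher mean, 176 ± 6.2 FPKM under diosmetin (SD, n = 3) and 168 ± 6.2 FPKM under vehicle (SD, n = 2).

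Complex III, the cytochrome bc1 complex, summed to 1844, 1829 and 1786 FPKM under diosmetin and 1766 and 1766 FPKM under vehicle. The mean was higher for 7 of its 9 genes (77.8%, beside 63.9% of all tested genes), and the median log2 difference was 0.049. Uqcrh, the hinge protein that helps cytochrome c dock, was the one gene without overlap (11.1%, beside 18.3% higher among all tested genes). It had 274, 287 and 259 FPKM under diosmetin and 237 and 258 FPKM under vehicle, and diosmetin replicate 3 lay just above vehicle replicate 2 (log2 difference 0.15, 95% interval -0.06 to 0.35). Cyc1, which carries the heme of cytochrome c1, had 170, 179 and 163 FPKM under diosmetin and 155 and 164 FPKM under vehicle. Uqcrfs1, the Rieske iron-sulfur protein, had 188, 175 and 184 FPKM under diosmetin and 182 and 180 FPKM under vehicle. Uqcrc1, a core protein of the matrix side, had 222, 210 and 218 FPKM under diosmetin and 206 and 213 FPKM under vehicle. The groups overlapped for all 3 of these.

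Complex IV, cytochrome c oxidase, summed to 3917, 3959 and 3917 FPKM under diosmetin and 3883 and 3880 FPKM under vehicle. The mean was higher for 11 of its 14 tested genes (78.6%, beside 63.9% of all tested genes). The median log2 difference was 0.048 (0.030 with no filter on low values). Cox4i1, a regulatory subunit, was its most abundant gene, with 697, 699 and 683 FPKM under diosmetin and 694 and 670 FPKM under vehicle. Cox5b (chr1:36691487-36693388), a zinc-binding subunit of the matrix side, had 151, 146 and 147 FPKM under diosmetin and 133 and 128 FPKM under vehicle. The groups did not overlap, and the log2 difference was 0.18 ± 0.06 (SE; limma, unadjusted p = 0.0301, adjusted p = 0.738). With median-of-ratios scaling of the libraries it was 0.13 (limma, unadjusted p = 0.159). Its partner Cox5a overlapped, with 236, 252 and 236 FPKM under diosmetin and 232 and 238 FPKM under vehicle. Cox7c (chr13:86044798-86046795), a small membrane subunit, ran the other way, with 331, 334 and 358 FPKM under diosmetin and 379 and 385 FPKM under vehicle. No library overlapped, and its log2 difference of -0.16 ± 0.08 was the lowest of the 81 (limma, unadjusted p = 0.0927, adjusted p = 0.738). Cox6a1 and Cox7a2, the isoforms usual outside muscle, were without overlap on the higher side. With Cox5b they made 3 of 14 higher without overlap (21.4%, beside 18.3% of all tested genes). Cox7c was the 1 lower (7.14%, beside 6.17%).

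Complex V summed to 4586, 4465 and 4466 FPKM under diosmetin and 4346 and 4412 FPKM under vehicle. The mean was higher for 12 of its 17 genes (70.6%, beside 63.9% of all tested genes), and the median log2 difference was 0.036. The 17 include Atp5s and Atp5sl, whose proteins are assigned elsewhere and whose log2 differences were -0.14 and -0.069. Without overlap, 6 were higher (35.3%, beside 18.3% of all tested genes) and 1, Atp5f1, was lower (5.88%, beside 6.17%). The catalytic Atp5b was the most abundant gene of the whole chain, with 1206, 1160 and 1207 FPKM under diosmetin and 1194 and 1187 FPKM under vehicle. Its log2 difference was 0.00077 (95% interval -0.27 to 0.27). Atp5a1, its partner in the catalytic head, had 780, 746 and 758 FPKM under diosmetin and 735 and 762 FPKM under vehicle. Atp5j2 (chr5:145183704-145191541), the f subunit of the membrane part, had 117, 114 and 107 FPKM under diosmetin and 100 and 97.3 FPKM under vehicle. The groups did not overlap, and the log2 difference was 0.18 ± 0.07 (SE; limma, unadjusted p = 0.0364, adjusted p = 0.738). With median-of-ratios scaling of the libraries it was 0.13 (limma, unadjusted p = 0.155). Atp5k, the e subunit, had 84.7, 68.1 and 66.7 FPKM under diosmetin and 55.6 and 63.1 FPKM under vehicle, also without overlap. RefSeq lists 4 pseudogenes named after Atp5k and 10 named after 8 other members, among them Ndufa12, Cox5b, Cox7c and Uqcrh, so reads of these genes may have been split by the authors' counting.

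Atp5g1, Atp5g2 and Atp5g3 encode the same mature c subunit of the rotor with different targeting peptides. Atp5g1 (chr11:96072793-96075694) had 136, 142 and 130 FPKM under diosmetin and 105 and 121 FPKM under vehicle, with no overlap and a log2 difference of 0.27 ± 0.09 (limma, unadjusted p = 0.0218, adjusted p = 0.738). Without vehicle replicate 1 the difference was 0.17 and the unadjusted p was 0.159. Summed over the 3 genes, the c subunit transcripts reached 765, 782 and 715 FPKM under diosmetin and 686 and 704 FPKM under vehicle. Atp5g1 made up 17.8%, 18.2% and 18.1% of the sum under diosmetin and 15.3% and 17.2% under vehicle. Across 7 isoform ratios tested within libraries, Atp5g1 to Atp5g3 was the one whose groups were separate (two-sided exact permutation p = 0.1, the smallest that 10 splits allow; adjusted p = 0.7). The ratio was 27.0%, 28.8% and 28.7% under diosmetin and 22.9% and 26.3% under vehicle. The other 6 ratios had exact permutation p-values between 0.4 and 1.

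The tissue-restricted isoforms were minor in these kidneys. Cox7a1, a heart and skeletal muscle isoform, had 23.0, 21.7 and 27.7 FPKM under diosmetin and 22.9 and 23.1 FPKM under vehicle, or 8.34% to 11.4% of Cox7a2 under diosmetin and 9.56% to 9.69% under vehicle. Cox6b2, a testis isoform, had 24.8, 17.0 and 14.4 FPKM under diosmetin and 11.1 and 20.2 FPKM under vehicle. Cox4i2, known from lung, had 0.203, 0.465 and 0.382 FPKM under diosmetin and 0.367 and 0.430 FPKM under vehicle. Cox6a2, a muscle isoform, was listed at 0 in diosmetin replicate 3 and did not exceed 0.375 FPKM elsewhere. Cox7b2 and Cox8c were listed at 0 in all 5 libraries.

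Cox8b and Ndufa4l2 varied most among the 81, and not by treatment. Cox8b, a muscle and brown fat isoform, had 3.64, 9.80 and 8.85 FPKM under diosmetin and 2.94 and 8.79 FPKM under vehicle. Ndufa4l2, a hypoxia-inducible relative of Ndufa4, had 2.05, 3.66 and 3.13 FPKM under diosmetin and 1.25 and 3.38 FPKM under vehicle. Diosmetin replicate 1 and vehicle replicate 1 were the low libraries for both genes. The same 2 libraries were lowest in the summed level of the 6 fibroblast markers, 20.5, 47.0 and 41.5 FPKM under diosmetin and 19.2 and 34.1 FPKM under vehicle. They were also lowest for the 10 pericyte and smooth muscle markers, 85.1, 117 and 105 FPKM under diosmetin and 74.3 and 121 FPKM under vehicle. The order was therefore not particular to these lists. The same 2 libraries were lowest in the summed thick ascending limb, endothelium, red blood cell, fat and striated muscle markers. In the other marker lists they were not the 2 lowest. Among the fibroblast markers, Pdgfra went the other way in vehicle replicate 1, its highest library at 6.74 FPKM. Of 10 fat markers, 1 passed the minimum (Fabp4, which endothelium also expresses), and of 12 striated muscle markers 1 passed (Actn3, mean 0.525 FPKM), with Elovl3 and Myh2 at 0 in every library. The part of these cells in the Cox8b and Ndufa4l2 values was not tested.

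**Figure D3:**
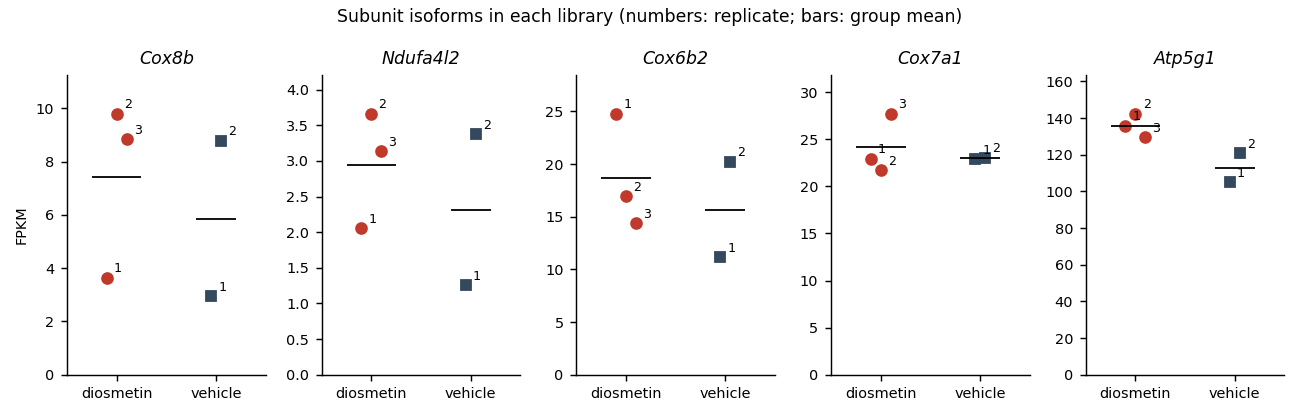
FPKM of 5 isoform genes in each library (linear axes from 0, numbers give the replicate, bars the group mean), diosmetin left and vehicle right. Cox8b and Ndufa4l2 are low in replicate 1 of both groups, whereas Atp5g1 lies between 130 and 142 FPKM under diosmetin and between 105 and 121 FPKM under vehicle.

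The small differences were unequally carried by the libraries, among the subunits and among all tested genes. Vehicle replicate 1 was the lowest library for 34 of 81 subunits and for 38.7% of all tested genes. Vehicle replicate 2 was lowest for 20 subunits and for 17.7% of all tested genes. Diosmetin replicate 1 was the highest for 29 subunits and for 10.9% of all tested genes. Diosmetin replicate 2 was highest for 28 subunits and for 37.5% of all tested genes. Without vehicle replicate 1, the median log2 difference of all tested genes was 0.020 in place of 0.043. That of complex V was 0.0073 in place of 0.036. That of complex IV was then 0.020 and that of complex I 0.052. That of complex III was 0.017 without diosmetin replicate 1.

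**Figure D4:**
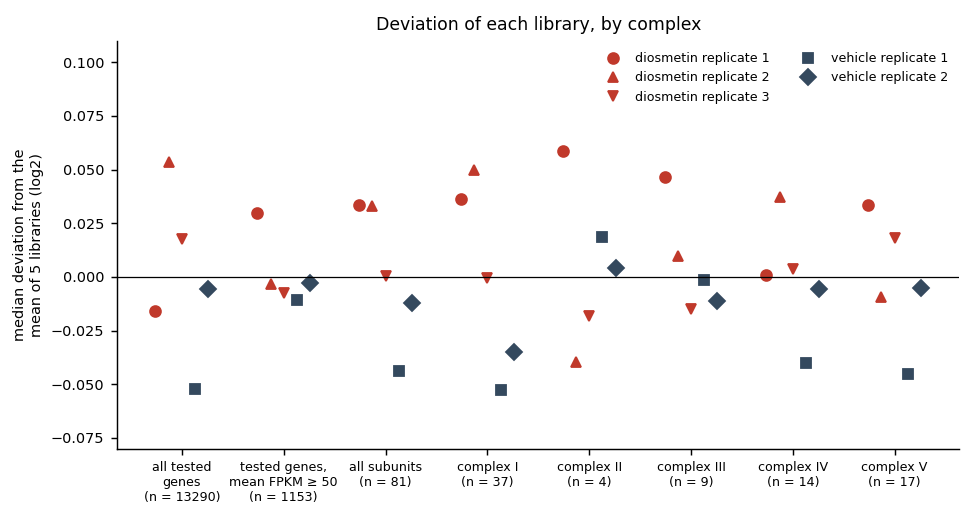
Median log2 deviation of each library from the mean of the 5 libraries, for all tested genes, the abundant ones, all subunits and each complex. Vehicle replicate 1 lies at -0.044 for all subunits and -0.052 for all tested genes, and diosmetin replicates 1 and 2 lie at 0.034 and 0.033 for the subunits.

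Most members have a short coding sequence, and higher means were more frequent among these. This division was chosen after the data were seen. The median log2 difference was 0.075 for 37 subunits with a coding length up to 400 nt, 0.070 for 25 between 400 and 700 nt, and 0.00077 for 19 above 700 nt. The mean was higher for 31, 21 and 10 of them. Other genes with a mean of 50 FPKM or more had medians of 0.097, 0.024 and -0.018 in the same classes (101, 195 and 780 genes). Over all tested genes without the subunits, the medians were 0.077, 0.054 and 0.040, so the longest class was above 0 there. Spearman's rho between coding length and log2 difference was -0.30 over the 81 genes, which share the same 5 libraries. The part of length in the differences was not tested.

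**Figure D5:**
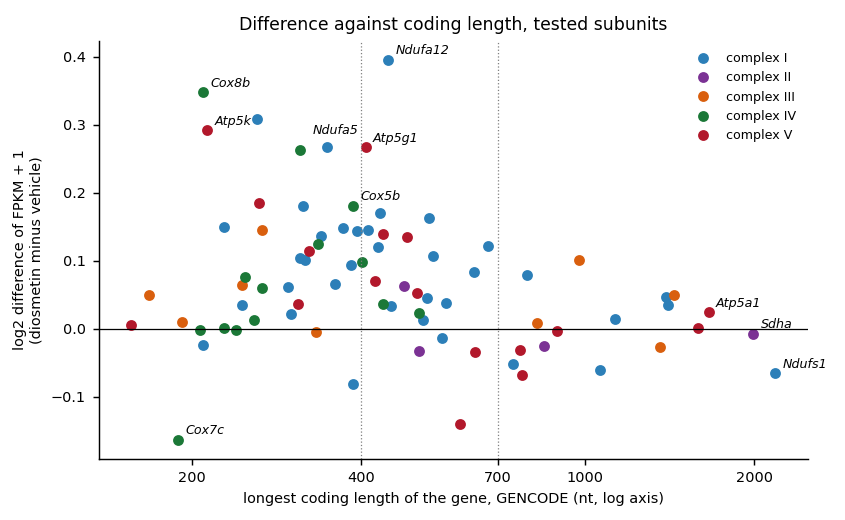
Log2 difference of FPKM + 1 (diosmetin minus vehicle) against the longest coding length (log axis) for the tested subunits drawn, coloured by complex, with dotted lines at 400 and 700 nt. The points furthest above 0, among them Ndufa12, Ndufa5, Atp5g1 and Atp5k, have coding lengths under 700 nt. All 19 tested genes above 700 nt have a median of 0.00077.

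The genes that assemble, feed and regulate the chain were likewise not called, with 0 in each of 10 lists. For comparison, 4.68% of all tested genes were higher and 1.69% lower at an unadjusted p under 0.05, and 63.9% had a higher mean. At an unadjusted p under 0.05, the complex I assembly factor Acad9 was lower, with 23.4, 22.4 and 25.6 FPKM under diosmetin and 28.5 and 28.6 FPKM under vehicle. It was 1 of 15 complex I assembly factors tested, of which 8 had a higher mean (53.3%). Sdhaf1 (complex II assembly), Uqcc3 (complex III assembly) and Coa7 (complex IV assembly) were higher at that level, among 4, 6 and 20 tested. Cycs, the cytochrome c that links complexes III and IV, was higher at that level, among 7 electron carriers tested (5 with a higher mean, 71.4%). It had 22.4, 23.2 and 21.2 FPKM under diosmetin and 18.8 and 18.9 FPKM under vehicle (limma, unadjusted p = 0.0130, adjusted p = 0.738). Of 14 citric acid cycle enzymes, Idh3a passed that level on the higher side, and 9 had a higher mean (64.3%, median log2 difference 0.022). None of 11 regulators of mitochondrial biogenesis passed it, though 9 had a higher mean (81.8%, median 0.10). Ppargc1a, the coactivator PGC-1alpha, had 16.1, 17.7 and 16.4 FPKM under diosmetin and 15.4 and 13.8 FPKM under vehicle. Of the 2 with a lower mean, Ppara had 38.6, 28.7 and 28.4 FPKM under diosmetin and 53.1 and 35.6 FPKM under vehicle. Its groups overlapped, and the log2 difference was -0.45 (limma, unadjusted p = 0.0664, adjusted p = 0.738). None of 11 mitochondrial DNA expression genes passed that level (7 higher, 63.6%, median 0.015). Nor did any of 13 import genes (10 higher, 76.9%, median 0.095) or 4 complex V assembly and inhibitor genes (3 higher, 75%, median 0.032).

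The libraries carried the markers of kidney, with 2551 FPKM or more of Kap, an androgen-regulated proximal tubule protein, and 1011 FPKM or more of Umod, uromodulin of the thick ascending limb, in every library. The 19 proximal tubule markers summed to 14066, 10239 and 13227 FPKM under diosmetin and 17213 and 16302 FPKM under vehicle. These sums lean on Kap, the most abundant of the 19. Kap had 2551, 2808 and 4751 FPKM under diosmetin and 4708 and 6153 FPKM under vehicle, so its groups overlapped. The mean was lower for 18 of 19, none at 0. At an unadjusted p under 0.05, 1 of 19 was lower, and 2 were lower without overlap (10.5%, beside 6.17% of all tested genes). The 9 intercalated cell markers summed to 328, 346 and 322 FPKM under diosmetin and 234 and 257 FPKM under vehicle, all 9 higher at an unadjusted p under 0.05 and none called. Thick ascending limb markers had a higher mean for 7 of 8, with sums of 2551, 3401 and 3163 FPKM under diosmetin and 2381 and 2782 FPKM under vehicle. All 7 distal convoluted tubule and all 7 principal cell markers also had a higher mean (medians 0.25 and 0.27). Higher at an unadjusted p under 0.05 were 3 thick ascending limb, 2 distal convoluted tubule and 4 principal cell markers, and none was called. Over all tested genes, 63.9% had a higher mean, 4.68% were higher at that p and 1.69% were lower. The part of these cells in the subunit values was not tested.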

How the data were processed

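Kidney RNA from 3 diosmetin and 2 vehicle libraries was analysed from 1 deposited table. Per the labels' protocols, ribosomal RNA was removed, and stranded libraries were read from both ends. The authors deposited FPKM values, scaled to transcript length and library total. The genome build named in the submitters' processing notes is GRCm38. Which aligner, counter and annotation were used, and whether counting used strand, was not given in the sources used here; overlapping genes and close copies are uncertain. A column was matched to a sample by its code in the labels.

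Values were taken as log2(FPKM + 1), and limma 3.58.1 in R 4.3.3 (eBayes with a trend) was fitted over 13290 genes with a mean of 0.5 FPKM or more, two-sided, with 3 residual degrees of freedom and Benjamini-Hochberg adjustment at 0.05. The +1 understates changes of low genes. Depth was estimated from the steps between FPKM values of 1533 low genes, of which 76.4% came out whole within 2%, so no counts were recovered. The fit was tested on simulated data: at 13290 genes it called 24.8% of simulated log2 changes of 0.5, 78.7% of 1 and 96.4% of 2. Isoform ratios were compared by exact permutation. Gene positions and promoters came from RefSeq GRCm38.p6 (all 85 members matched by GeneID), and coding lengths from GENCODE.

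Members, gene lists and tests were chosen with earlier results of these data known. A rule set the genes to be named. In each complex it took the 3 members of smallest p and the highest and lowest by mean. It also took the isoform pairs, the redox or catalytic subunits, and up to 3 genes of each pathway list and 2 of each marker list. Library values are not printed for every gene that the rule took. For 1 complex I member, individual values are not reported here or drawn in the figures; sums, counts and medians include it. The Cox6a2 to Cox6a1 ratio was not computed, since Cox6a2 was at 0 in a library. Alternatives were another pseudocount, filters, median-of-ratios scaling, rescaling to TPM, no trend, and leaving out each library.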

Additional observations from a re-analysis of the deposited data

How the results depend on the processing

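The 0 calls, among all genes and among the subunits, held under every alternative run. The stricter filter removed no tested subunit, and leaving out the variance trend changes no log2 difference. Neither could therefore move a list median, and they say nothing of its stability. The smaller pseudocount moved the median of complex IV to 0.049 from 0.048, with smaller moves in the others. Median-of-ratios scaling gave 2 subunits higher at an unadjusted p under 0.05, Atp5g1 and Ndufa5 (limma, unadjusted p = 0.0373 and 0.0494). It gave 39 with a higher mean, and 14 higher and 9 lower without overlap (11.6% and 10.8% of all tested genes). The median log2 difference was then -0.0064 for all subunits, 0.024 for complex I, -0.073 for II, -0.0068 for III, -0.0063 for IV and -0.020 for V. The same scaling turned Atp5b (-0.055), Cox4i1 (-0.033), Ndufa4 (-0.021), Cox6b1 (-0.043), Ndufv1 (-0.0086), Uqcrc1 (-0.0064), Uqcrfs1 (-0.048), Cox5a (-0.019) and Atp5a1 (-0.032) below 0. TPM turned Sdha (0.0023), Uqcrb (0.0043) and Cox8a (0.0076) above 0 and moved the complex II median to -0.0069. It gave 32 subunits higher without overlap, beside 18.4% of all tested genes. With no filter the complex IV median was 0.030.

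Leaving out each library in turn gave 1 to 6 subunits higher at an unadjusted p under 0.05, 29 to 47 higher and 5 to 13 lower without overlap. Over all tested genes these shares ran from 2.90% to 11.1% at that p in either direction, 20.7% to 45.2% higher and 10.0015% to 21.7% lower without overlap. Medians ran from 0.052 to 0.086 (complex I), -0.042 to 0.015 (II), 0.017 to 0.054 (III), 0.020 to 0.060 (IV) and 0.0073 to 0.065 (V). Log2 differences that changed sign ran from -0.063 to 0.012 (Sdhb), -0.0090 to 0.020 (Atp5b), -0.0019 to 0.048 (Cox4i1), -0.059 to 0.044 (Sdha), -0.072 to 0.060 (Uqcrb), -0.31 to 1.004 (Cox8b), -0.17 to 0.79 (Ndufa4l2), -0.14 to 0.67 (Cox6b2), -0.0091 to 0.028 (Cox6b1), -0.040 to 0.13 (Cox7a1), -0.011 to 0.014 (Cox8a), -0.030 to 0.12 (Ndufv1), -0.014 to 0.036 (Uqcrfs1) and -0.0012 to 0.050 (Atp5a1). Isoform ratios that changed sign ran from -0.53 to 0.067 (Cox4i2 to Cox4i1), -0.15 to 0.69 (Cox6b2 to Cox6b1), -0.14 to 0.084 (Cox7a1 to Cox7a2), -0.36 to 1.21 (Cox8b to Cox8a) and -0.25 to 1.13 (Ndufa4l2 to Ndufa4). Without a vehicle library the other one is assumed to vary like the diosmetin group. The cause of these shifts was not tested.

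Without Atp5s, Atp5sl, Cox7a2l, Ndufa4 and Ndufa4l2, whose proteins are assigned elsewhere, the subunit median was 0.051, a choice made after seeing the data, as was the comparison of spread with abundant genes. No paired analysis was possible because the labels number the libraries 1 to 5 and share no number between groups. Depth limits Cox4i2 and Cox6a2, both under 0.5 FPKM.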
